A study of Danio rerio with 12 samples.

Results

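The cells examined here were the GFP-negative fraction of adult zebrafish brains, compared 48 hours after injection of amyloid-β42 peptide or of a control peptide. They were chosen by the labels of the count columns: 3 libraries of GFP-negative cells after the amyloid-β42 peptide (AB42) and 3 of GFP-negative cells after the control peptide (CPP), 6 of the 12 libraries of the series. All 12 come from Tg(her4.1:EGFP) fish aged 6 months, a line in which a her4.1 promoter drives EGFP in radial glia, and all received a peptide injection into the brain, so no library represents an uninjected brain. The amyloid peptide is also written TR-Aβ42, and the labels spell out neither TR nor CPP. Brains were dissociated enzymatically and the cells were separated by flow cytometry into a GFP-negative and a GFP-positive fraction. The other 6 libraries, GFP-positive cells after AB42 and GFP-positive cells after CPP, entered the same fit, where they share in the filter and the estimate of spread, and are described below only where the fractions are compared. The labels name 3 replicates per group without saying whether they came from separate fish or whether same-numbered fractions share fish, so p-values measure the spread between libraries, which may be technical.

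The GFP-negative fraction holds what the reporter does not mark: neurons of every transmitter class, microglia, oligodendrocytes, cells of the vessel wall and meninges, and blood cells. Microglia, the resident phagocytes of the brain, take up debris and protein aggregates, digest them in lysosomes, export the lipid with apolipoproteins, and release cytokines and complement. Amyloid-β42 is the aggregation-prone fragment of the amyloid precursor protein that accumulates in Alzheimer's disease. In zebrafish, interleukin-4 (IL-4) acts on radial glia through its receptor and the transcription factor STAT6.

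Total counts ran from 12777104 to 15027301 in the AB42 libraries and from 9262838 to 15584769 in the CPP libraries, and a count of 3 in a library corresponded to 0.164 to 0.272 CPM in these 6, CPM being the count relative to the library total after TMM scaling, as edgeR gives it. The gene of the reporter's promoter, her4.1, stood at 30.1, 28.2 and 28.5 CPM in GFP-negative AB42 libraries and 33.6, 30.7 and 32.6 CPM in GFP-negative CPP libraries, beside 1827, 1818 and 2031 CPM in GFP-positive AB42 libraries and 2260, 2111 and 2461 CPM in GFP-positive CPP libraries. Reads of her4.1 may be shared with the tandem copies her4.2 and her4.3. A principal component analysis of the 6 GFP-negative libraries put AB42 and CPP apart along component 1, with 83.0% of the variance, beside 6.26% along component 2. The long noncoding RNA malat1 took 15.04% to 15.5% of the counts in AB42 libraries and 16.98% to 17.3% in CPP libraries, and 4 hsp70 genes together took 4.21% to 4.29% in AB42 libraries and 2.60% to 2.62% in CPP libraries. After TMM scaling the level of malat1 overlapped between the groups (log2 -0.03, adjusted p = 0.45).

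Of 20237 genes tested, 7733 (38.2%) passed an adjusted p of 0.05 between AB42 and CPP in GFP-negative cells (edgeR's quasi-likelihood test, Benjamini-Hochberg adjustment over all genes tested, used for every adjusted p below). Of these, 4239 (20.9% of the genes tested) were higher and 3494 (17.3%) lower with AB42. Scaling by library totals in place of TMM gave 3191 higher and 5463 lower, because it moved the median log2 fold change of all genes from -0.01 to -0.14. Most called changes were small, with a median of 1.62-fold among the genes that rose and 1.43-fold among those that fell. Changes of at least 2-fold were 1239 rises (6.12% of the genes tested) and 358 falls (1.77%), and changes of at least 4-fold were 182 rises and 30 falls. In 9740 genes (48.1%) the 3 AB42 and the 3 CPP libraries did not overlap. A share of called members in a gene list near 38.2% is therefore no more than the share among all genes. Where the calls of a list share a direction, they are to be read beside 20.9% higher or 17.3% lower. List medians are to be read beside -0.01.

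**Figure D1:**
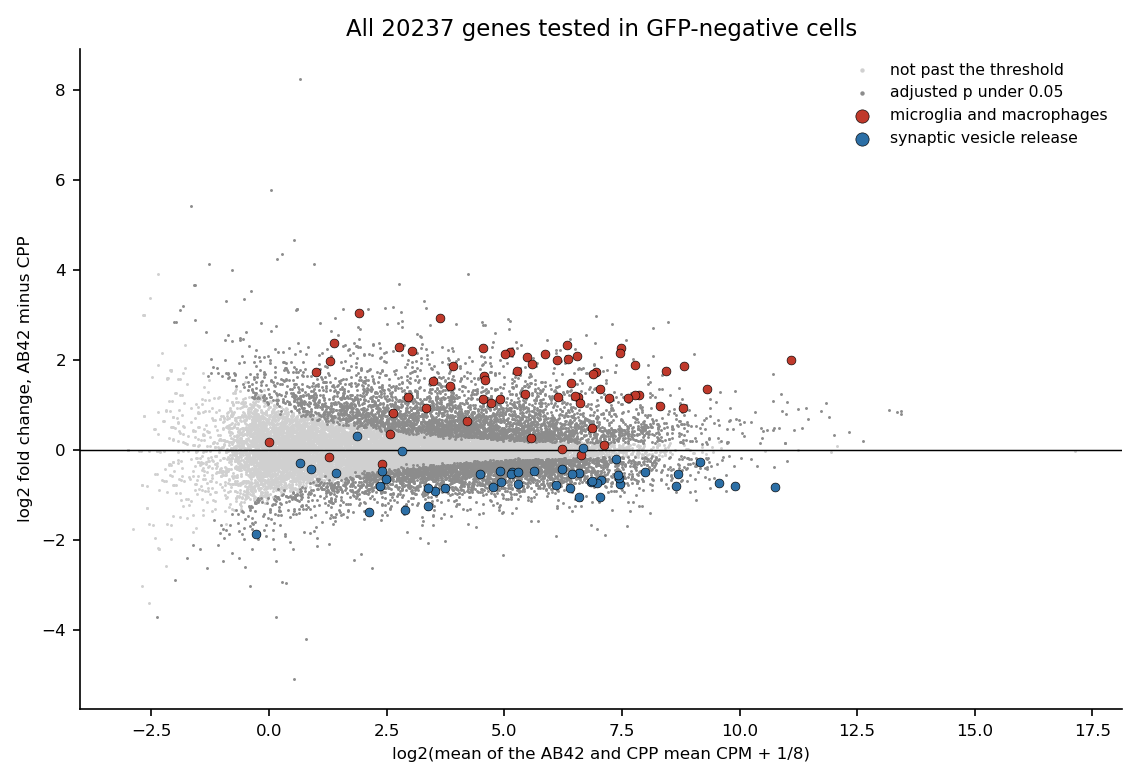
Log2 fold change between AB42 and CPP in GFP-negative cells (vertical axis) against mean level (horizontal axis, log2 of mean CPM plus 0.125) for each of the 20237 genes tested, with genes past an adjusted p of 0.05 in darker grey. Tested members of the list of microglia and macrophages (red) sit mostly above 0, and those of the list of synaptic vesicle release (blue) mostly below 0.

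Genes of microglia and macrophages rose together. Of 61 list members tested, 54 rose and 0 fell, 88.5% called beside 38.2% of all genes, with a median log2 fold change of 1.49; 47 of them rose at least 2-fold. Their summed level was 11600 to 12100 CPM in AB42 libraries and 3910 to 4270 CPM in CPP libraries. In bulk libraries, more cells of a type and more RNA per cell cannot be told apart.

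The most abundant member was apoeb, an apolipoprotein E gene that marks zebrafish microglia, on chromosome 16 (GRCz10, chr16:24045712-24048429). It stood at 3476, 3418 and 3601 CPM in AB42 libraries, against 911, 801 and 894 CPM in CPP libraries. All 3 AB42 libraries were thus far above all 3 CPP libraries, and the rise was 2.01 ± 0.05 (log2, SE), adjusted p = 1.15e-27. The gene was not particular to this fraction, since in CPP libraries it averaged 1653 CPM in GFP-positive and 868 CPM in GFP-negative cells. CMKLR1, a receptor for the chemoattractant chemerin (chr5:20066773-20086966), was at 289, 301 and 295 CPM in AB42 libraries, against 65.0, 57.3 and 61.9 CPM in CPP libraries. The groups did not overlap here either, and the difference was 2.27 ± 0.07 (log2, SE), adjusted p = 6.34e-24. P2RY12, the ADP receptor of resting microglia in mammals, was low, at 5.81, 7.73 and 6.004 CPM in AB42 libraries, against 0.635, 1.17 and 0.547 CPM in CPP libraries. Its rise of 3.05 on the log2 scale was the largest in the list (SE 0.308, adjusted p = 2.64e-10). The gene csf1ra, which encodes a receptor for colony-stimulating factor 1 that microglia depend on, averaged 38.8 against 7.95 CPM in AB42 and CPP libraries (log2 fold change 2.27, adjusted p = 2.52e-14). The 2 genes for the myeloid transcription factor PU.1, SPI1 and spi1a, changed by 1.73 and 1.49 on the log2 scale. MPEG1 (ENSDARG00000055290), a pore-forming protein of macrophages that is widely used as a reporter, was at 267, 276 and 275 CPM in AB42 libraries, against 118, 119 and 128 CPM in CPP libraries. It rose by 1.16 on the log2 scale, and 2 further genes with that symbol stayed under the filter on low counts. A receptor gene for uptake moved the same way: havcr1, of the family that binds phosphatidylserine on dying cells, averaged 134 against 26.3 CPM with AB42 and CPP (log2 2.34). The progranulin gene grna stood at 539, 531 and 542 CPM with AB42, against 154, 157 and 164 CPM with CPP (log2 1.76). Galectin lgals9l1 rose by 1.86, and the actin-bundling leukocyte proteins LCP1 and CORO1A by 1.35 and 1.22.

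Several microglial genes sit in tandem families, where reads of near-identical copies could have been split. The 6 MFAP4 genes of the list that were tested, which encode microfibril-associated protein 4 and include the macrophage reporter gene mfap4 of zebrafish, all rose, by 1.73 to 2.39 on the log2 scale, and this shared direction is reported rather than the level of any copy. The chemokine gene ccl34b.1, which marks a class of zebrafish microglia, averaged 288 ± 16.8 CPM with AB42 and 63.9 ± 7.71 CPM with CPP (SD, n = 3 each). The list members that did not pass were stab1, timd4, tyrobp, AIF1L, tnfb and 2 TGFBR1 genes, with log2 fold changes from -0.30 to 0.36. Of these, timd4, a phosphatidylserine receptor of macrophages, averaged 144 ± 1.45 CPM with AB42 and 135 ± 6.49 CPM with CPP (SD, n = 3 each), so not every gene of the list was higher. In GFP-positive cells the summed level of the list was 3480 to 3770 CPM after AB42 and 3620 to 3860 CPM after CPP, and these ranges overlapped. Of that sum apoeb alone held 1729, 1686 and 1781 CPM after AB42 and 1647, 1602 and 1710 CPM after CPP.

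**Figure D2:**
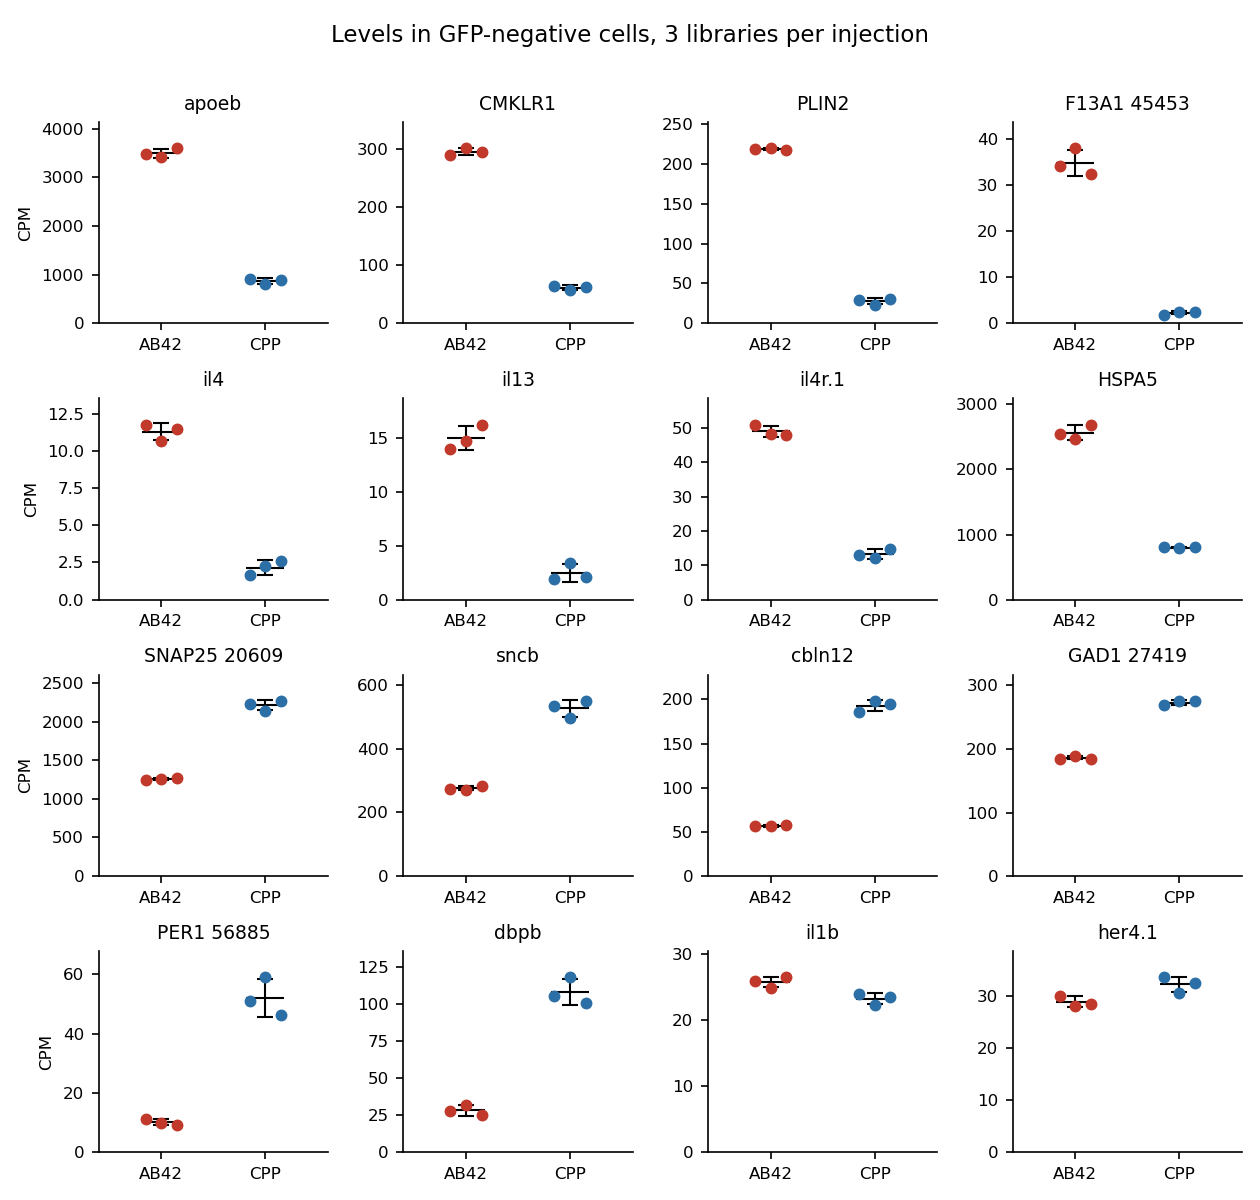
Level of 16 genes in each GFP-negative library (points, CPM on a linear axis from 0), with AB42 on the left and CPP on the right of each panel, and the mean ± SD of 3 libraries as a bar; 5-digit numbers are the last digits of the Ensembl identifier where a symbol is shared. The AB42 libraries lie above the CPP libraries in apoeb, CMKLR1, PLIN2, F13A1, il4, il13, il4r.1 and HSPA5, and below them in SNAP25, sncb, cbln12, GAD1, PER1 and dbpb, while for il1b and her4.1 the difference did not pass the threshold.

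Complement and coagulation genes were led by a clotting factor subunit. F13A1 (ENSDARG00000045453, chr24:2499153-2519579, plus strand), the catalytic subunit of the transglutaminase factor XIII that macrophages make in mammals, had the largest rise of any gene named by size. It stood at 34.1, 37.98 and 32.4 CPM in AB42 libraries, against 1.90, 2.41 and 2.46 CPM in CPP libraries. The groups were far apart, with a log2 fold change of 3.92 ± 0.17 (log2, SE), adjusted p = 1.16e-20. Further genes of factor XIII subunit A moved with it, F13A1 (ENSDARG00000094832) by 2.94 and f13a1b by 1.90 on the log2 scale. The 3 subunit genes of the complement starter C1q lie on chromosome 21 and rose alike. For c1qc the libraries held 150.1, 147 and 158 CPM in AB42 libraries, against 33.1, 34.3 and 39.5 CPM in CPP libraries, without overlap, and the log2 fold changes of c1qa, c1qb and c1qc were 2.13, 2.02 and 2.08. The anaphylatoxin receptor gene c5ar1 averaged 15.6 ± 2.41 CPM with AB42 and 3.11 ± 0.888 CPM with CPP (SD, n = 3 each). Properdin (cfp), which stabilises the alternative pathway convertase, rose by 1.43, and c7b, a component of the membrane attack complex, by 1.02. In all, 27 of 47 tested members of the list rose and 1 fell, the protease MASP1 (-0.65). That was 59.6% called, beside 38.2% of all genes, and the list's median was 0.74. The complement genes c4 and c4b, at log2 fold changes of -0.07 and -0.17, did not pass. The 3 C1q genes are also members of the microglial list.

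Lysosomal enzymes rose while several subunits of the proton pump fell. Of 56 members tested, 36 rose and 7 fell (76.8% called, beside 38.2% of all genes), with a median of 0.56. Their summed level was 8300 to 8700 CPM in AB42 libraries and 5460 to 5830 CPM in CPP libraries. Cathepsins, proteases of the lysosome, were among the rises. CTSC was at 203, 213 and 218 CPM in AB42 libraries, against 63.3, 59.2 and 65.4 CPM in CPP libraries, with no overlap, and rose by 1.75 on the log2 scale (adjusted p = 2.72e-21). CTSZ rose by 1.80, CTSK by 1.62, CTSD by 1.21 and CTSB by 1.12. Of the cholesterol exporters of the lysosome, NPC1 rose by 0.82 and the NPC2 genes by 1.07 and 1.64. The tetraspanin CD63 averaged 576 against 281 CPM, and the saposin precursor PSAP averaged 1655 against 923 CPM, in AB42 and CPP libraries. The 7 members that fell included ATP6V1A (-0.26), ATP6V0D1 (-0.33), atp6v1e1b (-0.38), ATP6V0C (-0.57) and ATP6V1B2 (-0.67), all subunits of the vacuolar proton pump that also fills synaptic vesicles, and the channel MCOLN1 (-0.82). Second genes of the same names went the other way for ATP6V0C (ENSDARG00000057853, 0.45) and ATP6V1B2 (ENSDARG00000013443, 0.43), both past the threshold.

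PLIN2 and fabp4a, genes of lipid storage and transport, were among the 12 largest rises, whereas the amyloid precursor genes appa and APP fell. PLIN2, the coat protein of lipid droplets (chr15:17094451-17112800), stood at 218, 219 and 218 CPM in AB42 libraries, against 29.6, 23.4 and 30.3 CPM in CPP libraries. That is 7.86-fold higher with AB42, or 2.97 ± 0.08 (log2, SE), adjusted p = 4.37e-26. The fatty acid carrier fabp4a was at 611, 605 and 661 CPM in AB42 libraries, against 86.1, 82.7 and 92.3 CPM in CPP libraries. Here too the groups did not overlap, and the log2 fold change was 2.84. The lipid exporter abca1b rose by 2.27, apoc1, which encodes an apolipoprotein, by 1.88, and ACSL4 (ENSDARG00000010752), which couples long polyunsaturated fatty acids to coenzyme A, by 2.37. Of the precursor genes of amyloid-β, appa averaged 327 ± 5.11 CPM with AB42 and 441 ± 29.6 CPM with CPP (SD, n = 3 each) and APP averaged 316 ± 4.24 CPM with AB42 and 434 ± 20.5 CPM with CPP (SD, n = 3 each). Both fell, with log2 fold changes of -0.43 (adjusted p = 7.37e-08) and -0.46 (adjusted p = 1.10e-08). ECE1, an endopeptidase known to degrade amyloid-β in mammals, averaged 16.2 against 4.003 CPM with AB42 and CPP and rose by 2.01. IDE, the insulin-degrading enzyme, rose by 0.33, while BACE1, a secretase that cuts the precursor, was at -0.33 and did not pass. The ApoE receptor LRP8 fell by 0.73. Over the whole list of amyloid precursor and lipid transport, 13 of 43 rose and 12 fell (58.1% called), and 11 and 17 with library totals. Cholesterol and fatty acid synthesis had 12 rises and 3 falls among 44 tested, 10 and 6 with library totals, 34.1% called, which is near the share among all genes. Its rises included HMGCS1 (1.31), an early enzyme of the sterol pathway. The medians of both lists, 0.02 and 0.08, changed sign under at least 1 alternative, so no direction is given for them.

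Some genes of interleukin-4 and interleukin-13 signalling rose, among them genes of ligands, receptor chains and a transcription factor. The ligand gene il4 (chr14:23702323-23704580, minus strand) was low, at 11.8, 10.7 and 11.5 CPM in AB42 libraries, against 1.63, 2.27 and 2.57 CPM in CPP libraries. All 3 AB42 libraries were above all 3 CPP libraries, and the log2 fold change was 2.35 ± 0.22 (log2, SE), adjusted p = 3.66e-11. Its sister cytokine il13 (chr9:54801611-54804560) stood at 14.0, 14.7 and 16.2 CPM in AB42 libraries, against 1.90, 3.37 and 2.13 CPM in CPP libraries. Again the groups did not overlap (2.59 ± 0.22 (log2, SE), adjusted p = 3.49e-12). The receptor gene il4r.1, whose product binds IL-4, was at 51.0, 48.1 and 48.0 CPM in AB42 libraries, against 13.1, 12.04 and 14.7 CPM in CPP libraries. Its rise was 1.87 on the log2 scale (adjusted p = 2.30e-16). The partner chain il13ra1 rose by 1.30 and il2rgb, of the common cytokine receptor chain, by 1.47. The kinase JAK1 rose by 0.67, and the transcription factor stat6 was at 26.9, 28.4 and 24.4 CPM in AB42 libraries, against 12.1, 11.2 and 13.1 CPM in CPP libraries, a rise of 1.12. PTPN6, a phosphatase of blood cells that damps cytokine receptors, rose by 1.29. Among the 10 of 19 members that did not pass were genes used elsewhere as readouts of the pathway in mammalian macrophages, MRC1 (-0.22) and ARG1 (-0.52), and the TH2 cell factor GATA3 (0.06). ARG2 rose by 0.32. The list as a whole had 9 rises and 0 falls and a median of 0.38. That was 47.4% called, beside 38.2% called and 20.9% called higher among all genes.

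Inflammatory genes rose in part, with the interleukin-1β gene il1b and the tumour necrosis factor gene tnfb outside the calls. Of 70 members tested, 45 rose and 6 fell (72.9% called, beside 38.2% of all genes), with a median of 0.79. The cytokine gene il6 averaged 10.1 ± 1.21 CPM with AB42 and 2.13 ± 0.529 CPM with CPP (SD, n = 3 each). Of the neutrophil-directed signals, csf3a, a granulocyte colony-stimulating factor gene, was at 38.1, 39.1 and 33.4 CPM in AB42 libraries, against 7.89, 7.78 and 10.1 CPM in CPP libraries. It rose by 2.09, and cxcl8b.1, a neutrophil attractant, by 1.83. The transcription factor gene REL rose by 1.31, nfkb2 by 1.03 and STAT3 by 0.81, and the feedback inhibitors SOCS3 (ENSDARG00000026611) and TNFAIP3 by 1.12 and 0.93. In contrast, il1b was at 26.0, 24.95 and 26.5 CPM in AB42 libraries, against 23.9, 22.3 and 23.5 CPM in CPP libraries. These groups were close but did not overlap, and the difference of 0.15 did not pass (adjusted p = 0.303). tnfb averaged 75.5 ± 4.26 CPM with AB42 and 73.9 ± 5.67 CPM with CPP (SD, n = 3 each; log2 0.03, adjusted p = 0.805). The 6 members that fell were STEAP4, hmgb1a, hmgb1b, cxcl11.1, CXCL14 and NOS2, the last by 0.85. Microglial markers rose in the same libraries, as given above, and their part in the inflammatory, complement and lysosomal changes was not tested.

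Genes of the interferon response and antigen presentation rose in part. In the list of interferon and antigen presentation 29 of 54 members rose and 2 fell, with a median of 0.35. That was 57.4% called, beside 38.2% of all genes. The invariant chain of MHC class II, cd74a, was at 2754, 2712 and 2911 CPM in AB42 libraries, against 1329, 1256 and 1404 CPM in CPP libraries. It rose by 1.07 (adjusted p = 6.61e-19) and cd74b by 0.98. The class II gene mhc2dab rose by 0.71, the class I genes mhc1uba and mhc1zba by 1.18 and 0.67, and b2m, the light chain of class I, by 0.53. Of the genes that interferon induces, IRF7 rose by 0.91 and isg15 by 0.35, whereas RSAD2 (-0.07) and stat2 (-0.15) did not pass.

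Markers of other blood cells passed at about the share of all genes, but for neutrophils and lymphocytes every call was a rise. Of 39 genes of neutrophils and lymphocytes, 16 rose and 0 fell, 41.0% called. Among all genes 38.2% were called and 20.9% were called higher. The summed level of the 39 genes was 1150 to 1210 CPM in AB42 libraries and 643 to 700.0 CPM in CPP libraries. A large part of the sum was CXCR4, at a mean of 316 CPM with AB42 and 157 CPM with CPP. Another was tnfrsf9b, at 115 CPM with AB42 and 46.9 CPM with CPP. MMP9 and csf3a, given in other paragraphs, are members too, so the sum is not that of lineage markers alone. The neutrophil lysozyme gene lyz averaged 17.2 ± 1.17 CPM with AB42 and 9.16 ± 1.36 CPM with CPP (SD, n = 3 each), a rise of 0.90, and the receptor CSF3R rose by 1.32. The immunoglobulin heavy chain gene ighm was at 56.8, 54.6 and 60.8 CPM in AB42 libraries, against 37.98, 34.8 and 39.2 CPM in CPP libraries, a rise of 0.62. The T cell genes lck (0.02), cd4-1 (-0.10) and cd8a (0.34) and the B cell factor PAX5 (-0.58) did not pass. Erythrocyte genes had 4 rises and 2 falls among 13 (46.2% called), and 2 and 3 with library totals. Their summed level was 164 to 178 CPM in AB42 libraries and 156 to 189 CPM in CPP libraries, so the sums overlapped. Much of the sum was cahz, which fell, at a mean of 92.5 CPM with AB42 and 110 CPM with CPP. In GFP-positive CPP libraries cahz averaged 469 CPM, so it was not particular to this fraction. The globin gene hbaa2 rose, at a mean of 6.01 CPM with AB42 and 2.98 CPM with CPP.

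Neuronal genes fell. Of 38 pan-neuronal genes tested, 30 fell and 2 rose, 84.2% called, with a median of -0.50. Their summed level was 8080 to 8340 CPM in AB42 libraries and 11600 to 12100 CPM in CPP libraries. SNAP25 (ENSDARG00000020609), a membrane fusion protein of the nerve terminal, was at 1240, 1254 and 1270 CPM in AB42 libraries, against 2237, 2142 and 2270 CPM in CPP libraries. The AB42 libraries were all lower, by 0.82 on the log2 scale (adjusted p = 1.89e-16), and the second gene of that name fell by 0.81. The β-synuclein gene sncb stood at 274, 270.4 and 283 CPM in AB42 libraries, against 533, 498 and 549.9 CPM in CPP libraries, again without overlap (log2 -0.93). RBFOX3 (ENSDARG00000010083), the splicing factor known as the neuronal marker NeuN, fell by 1.15, whereas ELAVL3, an RNA-binding protein that appears early in neurons, fell by 0.30. The 2 members that rose were UCHL1 (0.43), a deubiquitinase, and INA (ENSDARG00000011862, 0.29), an intermediate filament.

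Genes of transmitter release fell with them. Of 47 genes of synaptic vesicle release, 40 fell and 0 rose (85.1% called, beside 38.2% of all genes), with a median of -0.68. Their summed level was 5680 to 5730 CPM in AB42 libraries and 9010 to 9190 CPM in CPP libraries. Of the active zone scaffolds, rims2a fell by 1.05, BSN by 0.73 and PCLO by 0.75. Of the calcium sensors, SYT1 fell by 0.62 and SYT2 (ENSDARG00000025206) by 1.05. Of the list's falls, 6 reached 2-fold. Genes of voltage-gated channels had 26 falls and 0 rises among 49 tested (53.1% called, median -0.41), with the potassium channel kcnc3a at -0.97.

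Genes of each of the main transmitter classes fell; differences between the classes were not tested. Among genes of glutamatergic neurons 24 of 33 fell and 0 rose (72.7% called, beside 38.2% of all genes), with a median of -0.41. The kinase CAMK2A fell by 0.70, the receptor subunit GRIN1 (ENSDARG00000025728) by 0.64 and the transcription factor NEUROD2 by 1.04. Among genes of GABAergic neurons 19 of 28 fell and 2 rose (75.0% called), with a median of -0.61. GAD1 (ENSDARG00000027419), the enzyme that makes GABA, was at 185, 189 and 185 CPM in AB42 libraries, against 269, 275 and 276 CPM in CPP libraries. The groups did not overlap, and the fall was 0.55 on the log2 scale. The GABA receptor subunit GABRB2 (ENSDARG00000079586) fell by 0.92. In the cerebellar list 19 of 24 fell and 3 rose (91.7% called), with a median of -0.60. Its largest fall was cbln12, a cerebellin precursor gene, at 56.8, 56.1 and 58.0 CPM in AB42 libraries, against 186, 198 and 195 CPM in CPP libraries. With AB42 it was lower in every library, by 1.76 (adjusted p = 3.93e-20). The granule cell genes NEUROD1, ZIC1 and FAT2 fell by 0.92, 0.93 and 1.25, whereas the Purkinje cell gene CA8 (-0.05) did not pass.

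Neuropeptide and monoamine genes went both ways. Of 37 neuropeptide precursors, 17 fell and 7 rose (64.9% called, beside 38.2% of all genes). The oxytocin gene oxt was at 25.9, 21.6 and 27.12 CPM in AB42 libraries, against 46.1, 49.8 and 50.3 CPM in CPP libraries, and the AB42 libraries were all lower (log2 -0.98). UCN3, a ligand of the corticotropin-releasing factor family, fell by 1.34 and NPY by 0.76. In the other direction tac3a, a tachykinin precursor, rose by 0.87, kiss1 by 0.67 and pmchl, a melanin-concentrating hormone gene, by 0.83. PMCH, another gene of that hormone, fell by 0.56, at a mean of 20.1 CPM with AB42 and 29.6 CPM with CPP. Monoamine and cholinergic genes had 5 falls and 2 rises among 15, most at a few CPM. That was 46.7% called, beside 38.2% of all genes. With library totals there were 7 falls and 1 rise. CHAT, which makes acetylcholine, averaged 1.40 against 3.34 CPM with AB42 and CPP (log2 -1.26), and SLC18A3, which loads it into vesicles, averaged 0.478 against 1.79 CPM with AB42 and CPP (log2 -1.86). The dopamine transporter gene SLC6A3 (0.01) and TPH2 (-0.22), of serotonin synthesis, did not pass. Genes of newborn neurons and progenitors went both ways, with 6 rises and 7 falls among 26, and 5 and 9 with library totals. The proneural factor ascl1a rose by 0.74, and EBF3, a factor of early neuronal differentiation, fell by 0.63. Because levels are shares of each library, a higher share of microglial and stress-response RNA and a lower share of neuronal RNA cannot be told apart from a loss of neuronal RNA.

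**Figure D3:**
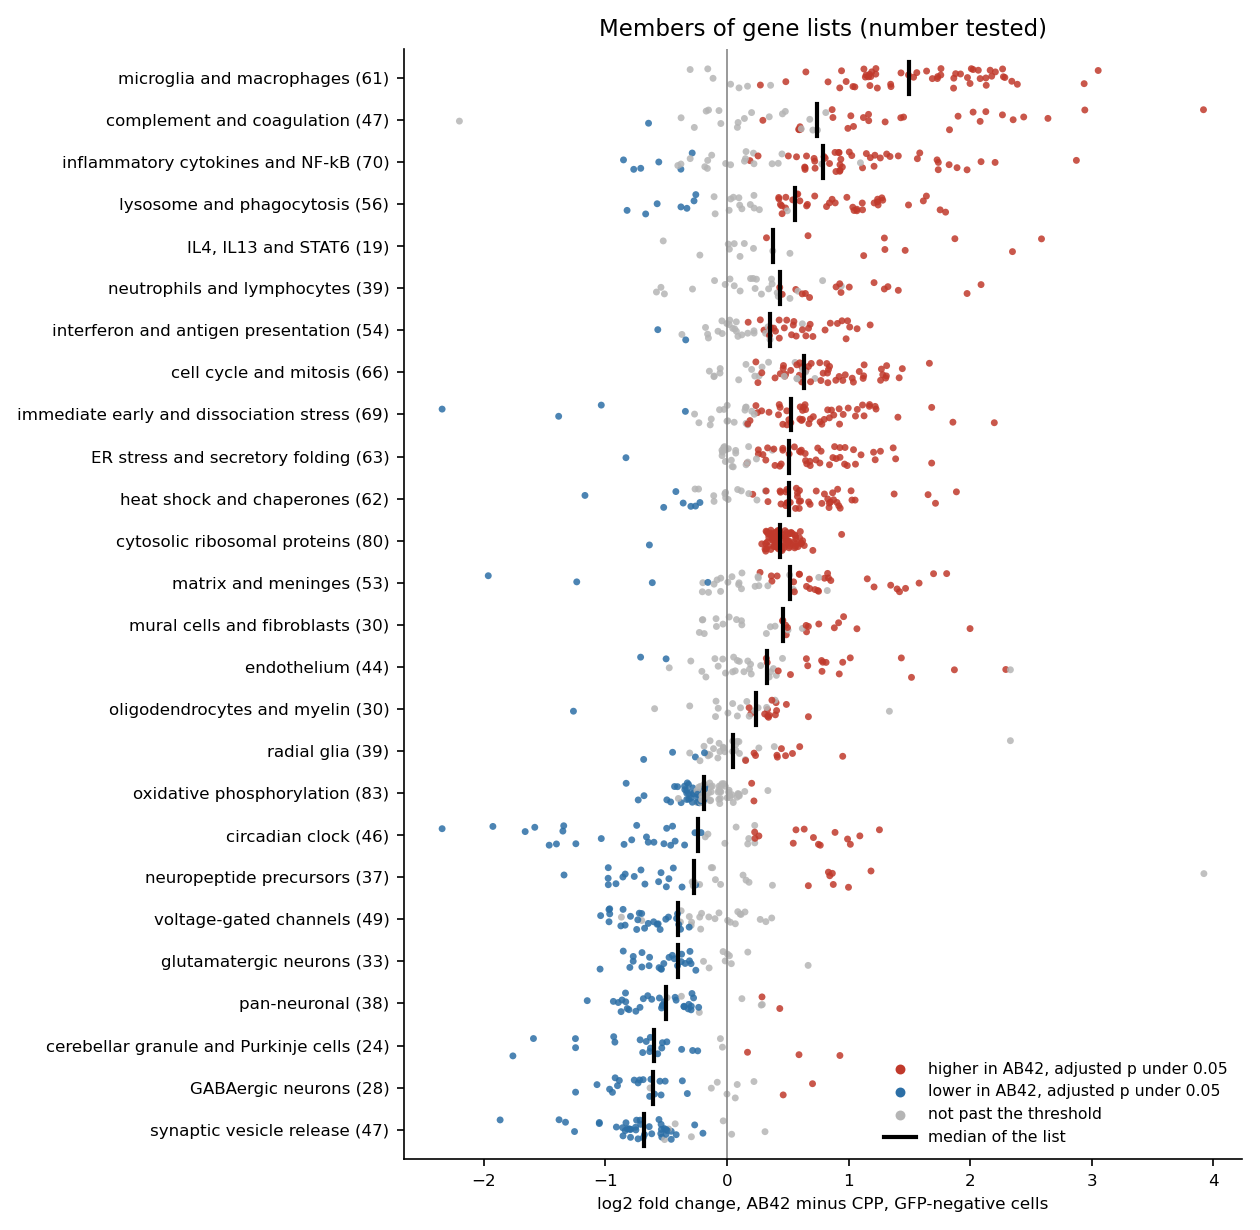
Log2 fold change between AB42 and CPP in GFP-negative cells for each tested member of 26 gene lists, with the median as a black bar and members coloured by call at an adjusted p of 0.05 (red higher, blue lower, grey not past). The medians run from -0.68 for synaptic vesicle release to 1.49 for microglia and macrophages.

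Myelin genes rose slightly. Of 30 oligodendrocyte genes, 13 rose and 1 fell, 46.7% called beside 38.2% of all genes, with a median of 0.24. Their summed level was 25000 to 25800 CPM in AB42 libraries and 20100 to 22100 CPM in CPP libraries. The myelin proteins plp1b and mbpa rose by small amounts, plp1b by 0.33 and mbpa by 0.20 on the log2 scale. For mbpa the values were 6621, 6758 and 6839 CPM in AB42 libraries, against 5958, 5548 and 6138 CPM in CPP libraries, and its call was lost with library totals (log2 0.06). The 1 member that fell was CNTN1 (-1.26), a cell adhesion protein that neurons also make. Scaling by library totals left 9 rises and 4 falls in this list.

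Some vessel, mural and matrix genes rose. Among 44 endothelial genes 17 rose and 2 fell (43.2% called, near the 38.2% of all genes). Among all genes 20.9% were called higher. The summed level of the endothelial genes was 669 to 700.0 CPM in AB42 libraries and 518 to 535 CPM in CPP libraries. pecam1a, an adhesion protein of the vessel lining that leukocytes and platelets carry as well, was at 47.0, 43.2 and 42.7 CPM in AB42 libraries, against 9.61, 8.60 and 8.96 CPM in CPP libraries. It rose by 2.29, TIE1, a receptor of endothelium, by 1.87 and robo4 by 1.52. In CPP libraries robo4 averaged 126 CPM in GFP-positive and 3.92 CPM in GFP-negative cells, whereas pecam1a and TIE1 were lower in GFP-positive cells. The endothelial cadherin cdh5, however, averaged 6.74 ± 0.567 CPM with AB42 and 7.22 ± 0.529 CPM with CPP (SD, n = 3 each; log2 -0.10, adjusted p = 0.732), and kdrl, a receptor for vascular endothelial growth factor, rose by 0.52. Of 30 genes of mural cells and fibroblasts, 14 rose and 0 fell. That was 46.7% called, beside 38.2% called and 20.9% called higher among all genes. With library totals 6 rose. The pericyte gene rgs5b averaged 204 ± 2.90 CPM with AB42 and 97.2 ± 2.91 CPM with CPP (SD, n = 3 each), a rise of 1.07, and acta2, smooth muscle actin, rose by 0.76. Matrix and meningeal genes had 27 rises and 4 falls among 53 (58.5% called), with a median of 0.52. The protease inhibitors TIMP4 (ENSDARG00000100795) and TIMP2 (ENSDARG00000075261) rose by 1.70 and 1.40, the protease MMP9 by 1.21 and the retinoic acid enzyme ALDH1A2 by 1.42. TIMP4 averaged 221 CPM in GFP-positive and 13.1 CPM in GFP-negative CPP libraries, and ALDH1A2 averaged 102 and 9.49 CPM. These TIMP2 and MMP9 genes were lower in GFP-positive than in GFP-negative CPP libraries.

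Epithelial, ciliated and radial glial genes gave no common direction, while genes grouped as reactive glia and regeneration rose in part. In the keratin list 12 of 44 rose and 9 fell (47.7% called), and 8 and 12 with library totals. The simple-epithelium keratins krt18b and krt8 were among the rises. For krt18b the values were 872, 836 and 865 CPM in AB42 libraries, against 194, 188 and 203 CPM in CPP libraries, a rise of 2.14, and krt8 rose by 1.47, whereas krt97 fell by 1.41. Genes of motile cilia had 3 rises and 2 falls among 41, 12.2% called, below the 38.2% among all genes. With library totals there were 3 rises and 7 falls, and most members stood at a few CPM or less. The filter ran over all 4 groups. In CPP libraries the list summed to 175 to 184 CPM in GFP-negative and 688 to 710 CPM in GFP-positive cells. Genes with few counts pass less readily, so the low share is not read as steady levels. One rise was spag1a, an assembly factor of ciliary dynein arms, at 95.7, 81.8 and 97.6 CPM in AB42 libraries, against 33.7, 36.3 and 36.8 CPM in CPP libraries (log2 1.36), while the cilia master regulator FOXJ1 was at 0.20 and did not pass. Radial glial genes, which the sort should leave at low levels, had 10 rises and 4 falls among 39. That was 35.9% called, near the 38.2% of all genes. With library totals there were 6 rises and 11 falls. The glial filament gene GFAP averaged 4.64 ± 0.714 CPM with AB42 and 3.201 ± 0.121 CPM with CPP (SD, n = 3 each; log2 0.54, adjusted p = 0.00404) and S100B averaged 13.6 ± 2.02 CPM with AB42 and 14.3 ± 1.67 CPM with CPP (SD, n = 3 each; log2 -0.08, adjusted p = 0.615). The GFAP call was lost under limma-voom (0.53, adjusted p = 0.0516) and without AB42 replicate 2 (0.40, adjusted p = 0.0685). Of the genes grouped as reactive glia and regeneration, 28 of 55 rose and 9 fell (67.3% called, beside 38.2% of all genes). HBEGF, a growth factor that triggers glial reprogramming in the injured zebrafish retina, averaged 118 ± 7.98 CPM with AB42 and 29.6 ± 3.04 CPM with CPP (SD, n = 3 each), a rise of 1.98, and TGIF1, a transcriptional repressor, rose by 0.98.

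Chaperone genes rose in the cytosol and in the endoplasmic reticulum. Of 62 heat shock and chaperone genes, 42 rose and 7 fell (79.0% called, beside 38.2% of all genes), with a median of 0.51. Their summed level was 60000 to 62600 CPM in AB42 libraries and 35400 to 36400 CPM in CPP libraries. HSP90AA1, a stress-inducible member of the HSP90 family, stood at 4856, 4817 and 5115 CPM in AB42 libraries, against 2352, 2333 and 2437 CPM in CPP libraries. It rose by 1.05, HSPA4 (ENSDARG00000004754), a nucleotide exchange factor for HSP70, by 1.89 and HSPBP1 by 1.65. The inducible genes hsp70.1, hsp70.3 and hsp70l, which are near-identical copies whose reads could have been split, rose by 0.84, 0.88 and 0.80. In the list of ER stress and secretory folding 44 of 63 rose and 1 fell, CREB3L1 (-0.83), with 71.4% called and a median of 0.51. HSPA5, the chaperone BiP that senses unfolded protein (chr5:2440676-2448586), was at 2552, 2462 and 2689 CPM in AB42 libraries, against 807, 789 and 802 CPM in CPP libraries. The groups were far apart, at 1.68 ± 0.04 (log2, SE), adjusted p = 8.97e-27. HSP90B1 rose by 1.39, MANF, a secreted ER stress protein, by 1.37, XBP1 by 0.93 and ATF3 by 1.06. The sensors ern1 (0.37) and EIF2AK3 (0.18) did not pass.

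Immediate early genes, which dissociation itself is known to induce, were high in every library and higher with AB42. Their summed level was 25500 to 27200 CPM in AB42 libraries and 15500 to 17700 CPM in CPP libraries. Of 69 tested, 48 rose and 4 fell (75.4% called, beside 38.2% of all genes). FOSL1 was at 108, 117 and 120.0 CPM in AB42 libraries, against 32.8, 37.0 and 37.1 CPM in CPP libraries. It rose by 1.68, NR4A3, a nuclear receptor, by 1.22, FOS by 0.49 and JUN by 0.62. The activity-dependent factor NPAS4 (ENSDARG00000055752) averaged 385 ± 1.85 CPM with AB42 and 347 ± 29.3 CPM with CPP (SD, n = 3 each) and did not pass. The part of dissociation in the chaperone and immediate early changes was not tested, since every library was dissociated.

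Genes of growth and division rose. All 80 tested genes of cytosolic ribosomal proteins passed the threshold, 79 higher and 1 lower, with a median of 0.44 and a summed level of 22000 to 25500 CPM in AB42 libraries and 15900 to 17900 CPM in CPP libraries. RPL3 averaged 1327 ± 30.04 CPM with AB42 and 868 ± 37.3 CPM with CPP (SD, n = 3 each), a rise of 0.61. With library totals 76 rose and 1 fell. Cell cycle genes had 46 rises and 0 falls among 66 (69.7% called, beside 38.2% of all genes), with a median of 0.63. TOP2A, which untangles chromosomes, was at 27.9, 26.8 and 24.4 CPM in AB42 libraries, against 10.8, 12.3 and 8.96 CPM in CPP libraries. It rose by 1.31, the mitotic motor kif11 by 1.26, the proliferation marker mki67 by 0.97 and PCNA, the replication clamp, by 0.57. Genes of apoptosis had 31 rises and 8 falls among 57 (68.4% called), and 25 and 13 with library totals. They rose on both sides of the balance, the anti-apoptotic mcl1a and mcl1b by 0.92 and 0.83 and the pro-apoptotic BAX and pmaip1 by 0.71 and 0.80. The cell cycle arrest gene cdkn1a averaged 2.87 ± 0.732 CPM with AB42 and 4.02 ± 0.488 CPM with CPP (SD, n = 3 each), a fall of 0.50.

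Energy, redox and protein turnover genes went both ways. Oxidative phosphorylation had 35 falls and 2 rises among 83 tested (44.6% called, beside 38.2% called and 17.3% called lower among all genes). Its median was -0.19, and 63 fell with library totals. The complex IV subunit cox8b fell by 0.83 and ndufa4b by 0.68. Glycolysis and hypoxia had 19 rises and 12 falls among 49 (63.3% called), and 12 rises and 16 falls with library totals. HK2, a hexokinase, rose by 1.59 and the lactate transporter SLC16A1 (ENSDARG00000068572) by 1.63, while eno2, the neuronal enolase, fell by 0.89. Proteasome and autophagy had 27 rises and 4 falls among 62, and 15 and 9 with library totals. The autophagy receptor SQSTM1 was at 389, 381 and 391 CPM in AB42 libraries, against 161, 155 and 164 CPM in CPP libraries, a rise of 1.27. In the list of iron and oxidative stress 17 of 42 rose and 5 fell (52.4% called), and 15 and 8 with library totals. HMOX1, which degrades heme, was at 164, 156 and 172 CPM in AB42 libraries, against 51.2, 47.1 and 51.3 CPM in CPP libraries. It rose by 1.72, NFE2L2, the oxidative stress factor NRF2, by 1.32, its inhibitor keap1a by 1.40 and the iron hormone hamp by 2.198, while the ferroxidase CP, ceruloplasmin, fell by 1.96.

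Genes of neurotrophin signalling fell in part, while those of a receptor rose. Of 17 tested, 9 fell and 2 rose (64.7% called, beside 38.2% of all genes). BDNF, the brain-derived neurotrophic factor, stood at 6.52, 6.51 and 8.005 CPM in AB42 libraries, against 9.52, 10.05 and 9.95 CPM in CPP libraries. The log2 fold change was -0.49 ± 0.17 (log2, SE), adjusted p = 0.0203, a call that was lost without AB42 replicate 1 (-0.44), AB42 replicate 2 (-0.44) or CPP replicate 3 (-0.48). The sorting receptor SORT1 (ENSDARG00000029402) fell by 0.98 and the NTRK3 genes by 0.73 and 0.46. Both rises were genes of NGFR, the low-affinity receptor of the family. One of them (ENSDARG00000089223) was at 12.98, 11.08 and 14.0 CPM in AB42 libraries, against 4.35, 3.51 and 2.84 CPM in CPP libraries, a rise of 1.85, and the other (ENSDARG00000088708) rose by 0.44, a call lost with library totals (0.31) and without CPP replicate 3 (0.29).

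Clock genes changed in both directions, with outputs among the falls, activators among the rises and repressors among both. Of 46 tested, 24 fell and 14 rose, 82.6% called. The repressor gene PER1 (ENSDARG00000056885, chr10:22841347-22862023) stood at 11.3, 10.04 and 9.39 CPM in AB42 libraries, against 50.9, 58.9 and 46.4 CPM in CPP libraries. With AB42 it was lower in every library, -2.34 ± 0.12 (log2, SE), adjusted p = 7.59e-18. The second PER1 gene (ENSDARG00000012499) fell by 1.03, PER3 by 0.85 and PER2 by 0.21. The output gene dbpb, a transcription factor that the clock drives directly, was at 27.7, 32.2 and 24.98 CPM in AB42 libraries, against 105, 118 and 101 CPM in CPP libraries. It fell by 1.93, ciarta, a clock repressor, by 1.66, BHLHE41 by 1.24 and NR1D1, the nuclear receptor REV-ERBα, by 1.40. Those that rose included the activators BMAL1 (0.99 and 0.55 for its 2 genes) and bmal2 (1.09), the repressor of D-box genes nfil3-5 (1.01) and cry3b (1.25). The labels give no time of day for injection or dissection, so the part of clock time was not tested.

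**Figure D4:**
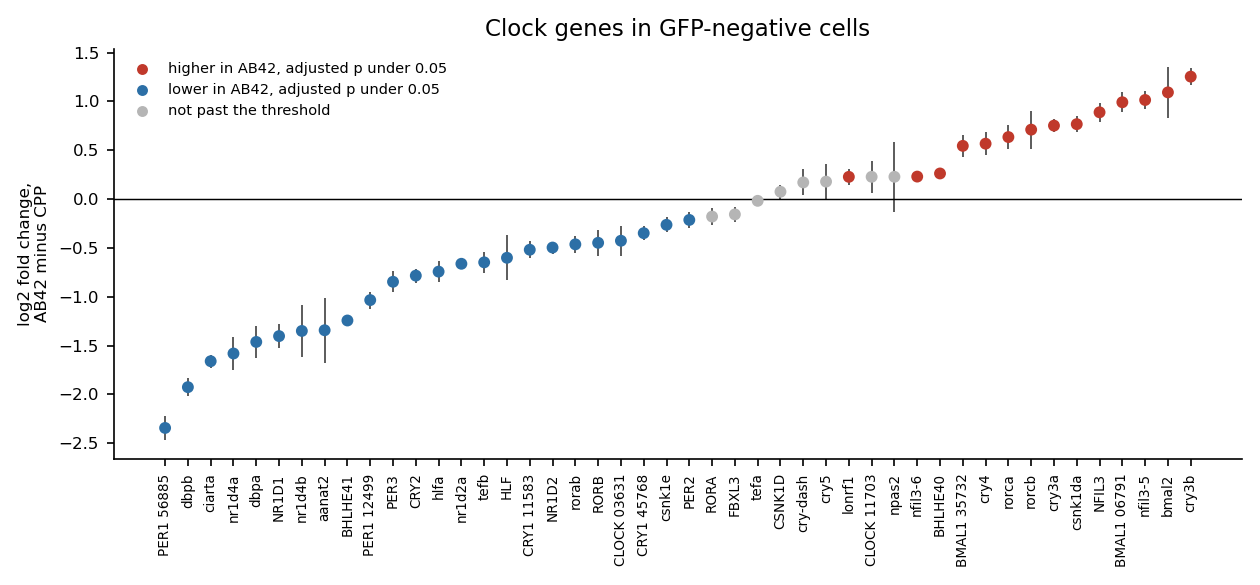
Log2 fold change ± SE between AB42 and CPP in GFP-negative cells for the 46 tested clock genes, in order of size; 5-digit numbers are the last digits of the Ensembl identifier. PER1, dbpb and ciarta lie at the low end and cry3b, bmal2 and nfil3-5 at the high end.

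Glucocorticoid-responsive genes did not move as a group. Of 31 tested, 10 rose and 9 fell (61.3% called, beside 38.2% of all genes), and 9 and 13 with library totals. FKBP5, a chaperone that the receptor induces, was at 129.6, 130.5 and 134 CPM in AB42 libraries, against 292, 289 and 305 CPM in CPP libraries, a fall of 1.17, and KLF9 fell by 1.38. PDK2 (ENSDARG00000059054), a kinase that slows pyruvate oxidation, rose by 1.71, and CEBPB by 0.997. The receptor NR3C1 (-0.05) and the targets tsc22d3 (-0.08) and sgk1 (0.00) did not pass.

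Genes named for the size of their change alone added members of few lists. Besides F13A1, P2RY12, PLIN2 and fabp4a, the 12 largest rises included the complement gene c3a.4 (3.18), the microfibril-associated mfap4.10 (3.17), the kinase sgk2b (3.15), the galectin-binding lgals3bp.3 (2.94) and lgals3bp.2 (2.79), the chemokine ccl34a.4 (2.87) and stra6l (2.74), of a retinol transporter family. For c3a.4 the values were 11.7, 10.7 and 10.5 CPM in AB42 libraries, against 0.907, 1.38 and 1.26 CPM in CPP libraries. None of the 12 overlapped between the groups, as the rule required. The 12 largest falls were led by camk1ga, a calcium-dependent kinase, at 1.004, 1.40 and 1.24 CPM in AB42 libraries, against 7.25, 6.88 and 8.64 CPM in CPP libraries. It fell by 2.63. Besides PER1, dbpb, ciarta, cbln12 and CP they held s100s (-2.08), a calcium-binding protein, the splicing factor smu1b (-1.89), GOLGA7B (-1.83), the polarity protein pard6ga (-1.71), the ependymin gene epd (-1.69), which encodes a secreted brain glycoprotein of fish, and saga (-1.68), an arrestin gene. For epd the libraries held 85.3, 93.9 and 97.6 CPM in AB42 libraries, against 310.4, 273 and 312 CPM in CPP libraries.

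The effect of AB42 differed between the fractions for 4439 of 20237 genes (21.9%), tested as the difference of the log2 fold changes in GFP-negative and GFP-positive cells. The effect was more positive in GFP-negative cells for 3334 genes (16.5%) and more negative for 1105 (5.46%). Scaling by library totals gave 2109 and 3248 genes, so the split between directions depends on the scaling. It moved the median difference of all genes from 0.08 to -0.15. The counts of differing list members below were not repeated with library totals. In GFP-positive cells 3779 genes (18.7%) passed between AB42 and CPP.

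Microglial genes were among those that differed. Of the 61 tested, 51 had a more positive effect in GFP-negative cells and 0 a more negative one, beside medians of 1.49 in GFP-negative and -0.09 in GFP-positive cells. The apolipoprotein gene apoeb was at 1729, 1686 and 1781 CPM in GFP-positive AB42 libraries and 1647, 1602 and 1710 CPM in GFP-positive CPP libraries. Its log2 fold change there was 0.07 (adjusted p = 0.345), and the difference between the fractions was 1.94 ± 0.07 (log2, SE; adjusted p = 4.29e-22). For il4, GFP-positive libraries held 0.250, 0.711 and 0.543 CPM after AB42 and 0.316, 0.719 and 0.559 CPM after CPP. The difference was 2.42 ± 0.56 (adjusted p = 0.00123), whereas for il13 it was 1.69 ± 0.98 and did not pass (adjusted p = 0.237). The receptor il4r.1 and stat6 rose in both fractions and more in GFP-negative cells, with differences of 0.999 and 0.66. For F13A1 (ENSDARG00000045453) the difference of 0.58 ± 0.32 did not pass (adjusted p = 0.207), so its rise is not shown to differ between the fractions.

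The effect on il1b and cd74a also differed. The cytokine gene il1b, whose difference in GFP-negative cells did not pass, stood at 2.50, 2.61 and 3.15 CPM in GFP-positive AB42 libraries and 16.8, 20.3 and 15.5 CPM in GFP-positive CPP libraries. It fell there by 2.68 on the log2 scale, and the difference between the fractions was 2.83 ± 0.20 (adjusted p = 1.20e-13). The invariant chain cd74a fell in GFP-positive cells (-0.94) and rose in GFP-negative cells (1.07). The medians of the immune lists in GFP-negative and GFP-positive cells were 0.35 and -0.38 for interferon and antigen presentation, 0.43 and -0.78 for neutrophils and lymphocytes, and 0.79 and -0.09 for inflammatory cytokines. They were 0.74 and 0.00 for complement and coagulation and 0.38 and 0.08 for the interleukin-4 and interleukin-13 list. In GFP-positive cells neutrophil and lymphocyte genes summed to 598 to 691 CPM after AB42 and 635 to 739 CPM after CPP, and these ranges overlapped. Some of these genes were low there. After AB42 and CPP, mmp13a averaged 1.13 and 1.09 CPM and ighm averaged 0.344 and 11.7 CPM.

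Neuronal and clock lists had medians below 0 in both fractions. For synaptic vesicle release the medians were -0.68 in GFP-negative and -0.77 in GFP-positive cells, with 8 members more positive and 3 more negative in GFP-negative cells among 47, near the shares among all genes. In CPP libraries the synaptic genes summed to 1920 to 1950 CPM in GFP-positive and 9010 to 9190 CPM in GFP-negative cells. Which cells of the GFP-positive fraction carried this RNA was not tested. For pan-neuronal genes they were -0.50 and -0.65, and 14 and 5 of 38 differed. For the clock they were -0.24 and -0.22. PER1 (ENSDARG00000056885) changed by -2.74 in GFP-positive cells. Of the ER stress genes, 32 of 63 had a more positive effect in GFP-negative cells and 0 a more negative one, and HSPA5 differed by 0.79 ± 0.06 (adjusted p = 8.05e-13). Ribosomal protein genes had medians of 0.44 and 0.05, with 71 of 80 more positive, a count not repeated with library totals. Cell cycle genes had medians of 0.63 and 0.45. Of 66, 10 were more positive and 2 more negative, no more than the shares among all genes (16.5% and 5.46%).

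**Figure D5:**
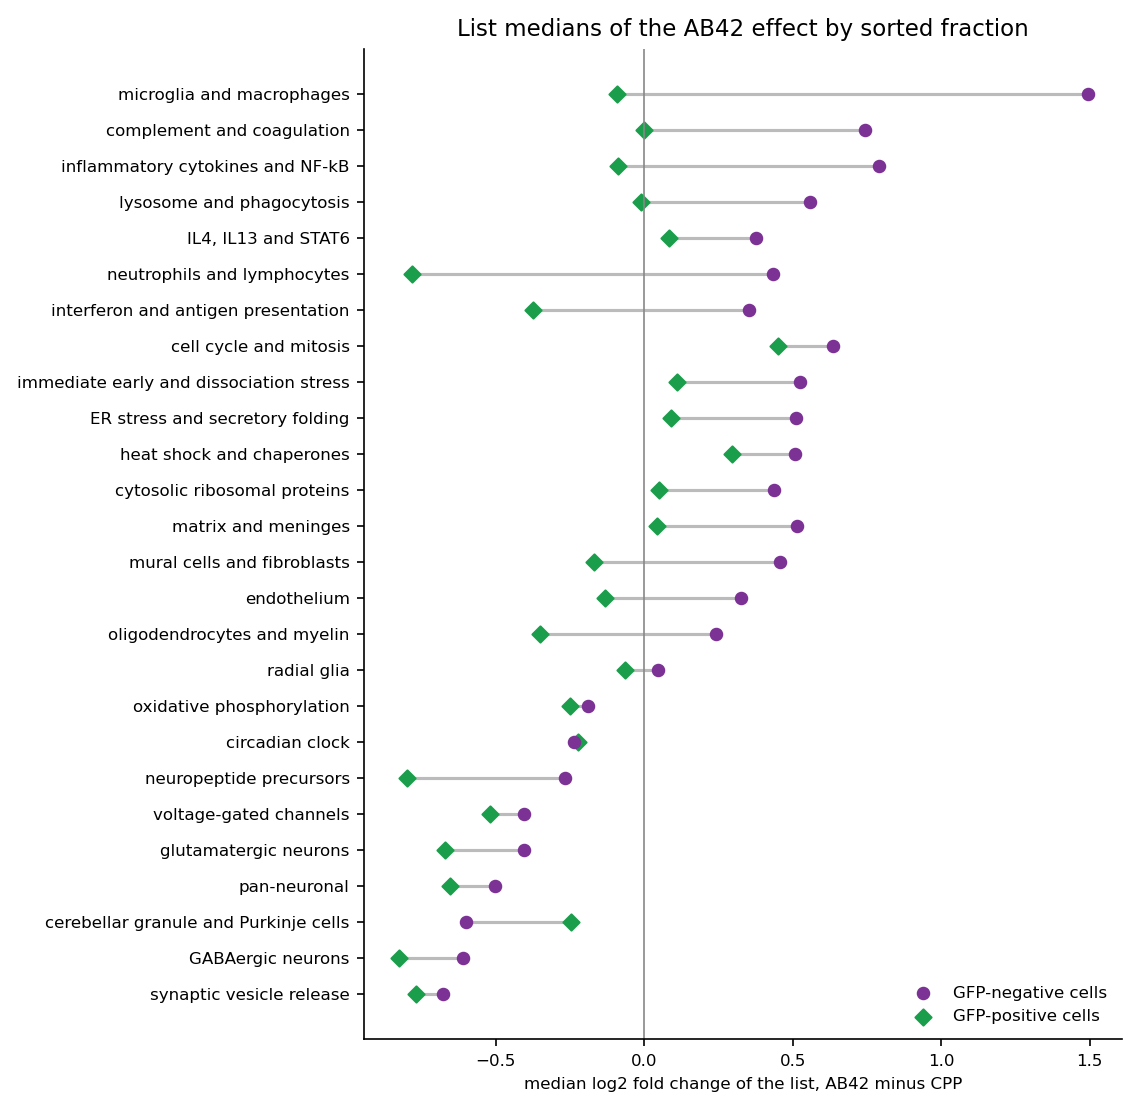
Median log2 fold change between AB42 and CPP for the tested members of each gene list in GFP-negative cells (purple circles) and GFP-positive cells (green diamonds). Microglia and macrophages stand at 1.49 in GFP-negative and -0.09 in GFP-positive cells, and the lists of pan-neuronal, glutamatergic, GABAergic and synaptic genes lie below 0 in both.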

How the data were processed

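Messenger RNA was measured by sequencing in 12 libraries, 3 in each of 4 groups, and the 6 of GFP-negative cells are described. The values are whole-number counts of reads for each Ensembl gene, deposited by the authors without normalization. The submitters' processing notes name featureCounts and BWA (version 0.7.12) and the builds GRCz10 and danRer10. They give no strand setting, annotation release or filter. Without molecular identifiers, amplified reads are not independent molecules, so floors cover counting error only. Coordinates are those of the deposited table (GRCz10), and its exon length column, as deposited, is another value than the counts and scaled nothing, so levels are not compared between genes per length.

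From the counts, edgeR 4.0.16 (R 4.3.3) kept 20237 of 31953 genes with filterByExpr, scaled libraries by TMM, fitted 4 group means over the 12 libraries, and tested AB42 minus CPP in GFP-negative cells and its difference from GFP-positive cells. The quasi-likelihood test and the Benjamini-Hochberg adjustment over all genes tested apply to every adjusted p, with a threshold of 0.05. Fold changes carry a prior count of 0.125, and the SE is the size of the log2 fold change over the square root of F. CPM is the count per 1e+06 of the scaled library size. The scripts were tested on simulated data.

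Symbols came from the supplied name table for 26121 genes. Of 1832 listed symbols in 40 lists, 104 had no match, and 366 matched once a paralog letter was removed. Genes were named by a rule. It took the 12 largest rises and 12 largest falls that passed, did not overlap and reached 5 CPM. It also took up to 4 members of each list with the smallest p, and a fixed set. Last, it took the 6 largest differences between the fractions in each direction among genes past that test. These also had to show no overlap of AB42 and CPP in GFP-negative cells and reach 5 CPM in a group. Clone and locus names were left out of the choices by size. Other list members given as examples were chosen after their values were seen. The members and lists were chosen with earlier results of these data known. Alternatives were DESeq2 1.42.0, limma-voom 3.58.1, other scalings and filters, a replicate block, the GFP-negative libraries alone, and leaving out each library. Some genes that the rule names or that were measured are not reported here.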

Additional observations from a re-analysis of the deposited data

Results flagged for a closer look

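The effect of AB42 differed between the fractions for 4439 genes, by the test of the difference itself. It was more positive in GFP-negative cells for 3334 of them and more negative for 1105. Each gene below passed that test, and its value is the log2 effect in GFP-negative minus that in GFP-positive cells. Only the genes taken for the size of their difference were also examined with library totals.

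The largest differences given here are those the naming rule took, among genes whose AB42 and CPP libraries did not overlap in GFP-negative cells. Most of the positive ones rest on genes near the floor in GFP-positive AB42 libraries. Where a group had almost no counts, the fitted value depends on the prior count and is no bound. The immunoglobulin gene ighm differed by 5.74, with 56.8, 54.6 and 60.8 CPM in GFP-negative AB42 libraries and 37.98, 34.8 and 39.2 CPM in GFP-negative CPP libraries, beside 0.250, 0.237 and 0.543 CPM in GFP-positive AB42 libraries and 12.96, 9.91 and 12.2 CPM in GFP-positive CPP libraries. The T-box factor tbx21 differed by 6.55, with 0 counts in the GFP-positive AB42 libraries. The others were itln1 (5.53), itga2b (5.23), spink2.7 (4.68) and gpr55a (4.62). The largest negative differences by that rule were PMCH (-3.31), clcf1 (-2.79), ensaa (-2.19), col7a1l (-2.17), DNAI4 (-2.11) and crocc2 (-1.81). Some of these also rest on few counts. PMCH stood at 0.237, 0 and 0.0931 CPM in GFP-positive CPP libraries. In GFP-negative AB42 libraries DNAI4 had 8, 6 and 6 counts and crocc2 had 3, 7 and 6. The cytokine gene clcf1 averaged 5.52 against 3.95 CPM in GFP-negative AB42 and CPP libraries, which did not pass (log2 0.45, adjusted p = 0.122). In GFP-positive AB42 and CPP libraries clcf1 averaged 6.59 against 0.697 CPM, a rise of 3.25 on the log2 scale. Its partner crlf1a rose in both fractions, by 1.18 in GFP-negative and 2.22 in GFP-positive cells, a difference of -1.04.

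Among genes named by the rule, the difference was 1.94 for apoeb, 1.39 for MPEG1, 2.42 for il4, 0.999 for il4r.1, 0.66 for stat6, 2.83 for il1b and 1.03 for tnfb. For neuronal genes it was -0.24 for ELAVL3, 0.37 and 0.70 for the SNAP25 genes and 0.93 for GAD1, and for the myelin gene mbpa it was 0.82. The amyloid precursor genes appa and APP differed by -0.47 and -0.31, and the NGFR genes by 0.50 and 2.36. The remaining values were 0.79 for HSPA5, 0.57 for hsp70.1, 0.54 for hsp70.3, 0.53 for PER1 (ENSDARG00000012499) and 0.46 for malat1. A positive difference need not be a rise in GFP-negative cells. GAD1, PER1 (ENSDARG00000012499) and both SNAP25 genes fell in both fractions, and more in GFP-positive cells. The effects in GFP-negative and GFP-positive cells were 0.03 and -0.996 for tnfb, -0.03 and -0.49 for malat1, and 0.20 and -0.62 for mbpa. HSPA5, hsp70.1, hsp70.3, il4r.1 and stat6 rose in both, and more in GFP-negative cells.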

How the results depend on the processing

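The count of genes past the threshold between AB42 and CPP, 7733, ran from 6708 to 8654 over the 15 alternatives. With library totals in place of TMM, which moved the median of all genes to -0.14, genes lower with AB42 numbered 5463, and for the difference between the fractions 2109 genes were more positive and 3248 more negative in GFP-negative cells, against 3334 and 1105. Leaving out each library in turn gave 6708 to 7077 genes, 3591 to 3823 higher and 2896 to 3404 lower, and for the difference 3839 to 4382, 2517 to 3257 and 907 to 1470. Leaving out AB42 GFP-negative replicate 3, CPP replicate 1 or CPP replicate 2 lowered the share of more positive differences to 65.6%, 64.7% and 64.7%. The main fit did not take the replicate numbers as pairs. Same-numbered AB42 and CPP libraries of GFP-negative cells deviated with correlations of -0.018, 0.13 and 0.22. Same-numbered GFP-positive libraries gave 0.11, 0.17 and 0.34, and all same-numbered pairs of the 4 groups gave -0.087 to 0.34. Libraries numbered 3 deviated together in every pair of groups, at 0.22 to 0.34. Pairs with different numbers gave -0.32 to 0.23. Whether same-numbered libraries share a source was not tested. A fit with the replicate block called 8236 genes and 5105 differences. Apart from the fixed set, the named genes were chosen by size or small p in the main fit. Their stability therefore does not stand for that of all called genes. Of 190 named genes past the threshold, 182 kept direction and call in every alternative run. The call was lost in at least 1 for 8 (BDNF, GFAP, NGFR ENSDARG00000088708, mbpa, crocc2, blvrb, SLC4A1 and IFT57), and the cause was not tested. Conversely her4.1 and gpr55a passed in 5 alternatives each and malat1 with library totals. The medians of 8 of 40 lists changed sign, among them radial glia, newborn neurons, keratins, glycolysis and the glucocorticoid response. Depth limits genes near the level of 3 counts, 0.164 to 0.272 CPM in GFP-negative libraries.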
